A study of Mus musculus with 87 samples.

Results

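The genes described here encode the extracellular layer of Wnt signalling. They were taken as every gene symbol in the comparison tables that is a Wnt followed by a number and, if present, the letter a or b, a frizzled receptor (Fzd), a secreted frizzled-related protein (Sfrp) or a dickkopf protein (Dkk). This gave 37 of the 26171 gene symbols: 19 Wnt ligands, 10 Fzd receptors, 4 Sfrp genes and 4 Dkk genes. The rule uses gene names and no measured value, but it was chosen with earlier results of these data known. The third Sfrp gene appears in the tables as Frzb and was therefore followed in another list. RNA was sequenced from mouse embryonic stem cells (ESC) of the line 129-B13, kept in serum with LIF, and from neuronal precursors (NP) made from them through embryoid bodies, with retinoic acid on day 4 and harvest on day 8. All groups concern Suz12, which is required for the activity of PRC2, the Polycomb enzyme that writes the mark H3K27me3 on histone H3. In both cell states WT is the unmodified line, CSex4 is a WT line in which Suz12 exon 4 is constitutive, and Deltaex4 is a line with exon 4 deleted from Suz12. KO is the full Suz12 knock-out, and KO-L and KO-S are that knock-out with the long or the short Suz12 isoform put back. KO-L3D and KO-S3D, present in ESC only, are such rescues from the Rosa26 locus with the 3D mutation downstream of exon 4. The ESC comprised 3 WT, 3 KO and 2 samples of each other group. The NP comprised 4 WT samples and 2 samples of each other group. Whether a line is 1 clone is not given in the sources used here.

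Wnt ligands are secreted, lipid-modified glycoproteins that bind Fzd receptors at the cell surface. In the best known branch of the pathway this binding stabilises beta-catenin, which enters the nucleus and drives target genes with TCF and LEF factors. Sfrp proteins bind Wnt ligands outside the cell, and Dkk proteins mostly act on the Lrp co-receptors. In ESC, Wnt activity is known for its roles in self-renewal and in the entry into primitive streak fates, and in the neural tube Wnt1 and Wnt3a mark dorsal territory.

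The deposited tables give 1 value per gene and comparison and no value per sample. Group levels below were therefore worked out from the mean and the fold change of a gene in a table, and are called estimated normalised reads per library. They are given for comparison within a gene only, because they are not divided by transcript length, and a level under 3 reads cannot be told from 0. Suz12 itself was lower in KO than in WT, with log2 fold changes in the authors' deposited tables of -1.82 ± 0.22 (SE, adjusted p = 8.21e-15) for ESC and -2.14 ± 0.33 (adjusted p = 5.63e-09) for NP. It was lower in ESC Deltaex4 by -1.28 ± 0.40 without passing the adjusted test (adjusted p = 1.000), and its difference from WT in ESC KO-S3D was -0.06 ± 0.42 in the authors' deposited table. Reads summed over genes lay between 26085140 and 31499803 per library on average. A single one of the 3 WT libraries had no bearing on the fold changes in 6 of the 7 ESC tables. The estimated levels count all 3 WT libraries, so they are less certain in those 6 tables. For Wnt7a the WT estimates ran from 32.4 to 70.5 reads over the ESC tables, and for Wnt7b from 573 to 974. All ESC tables share their WT libraries, and the NP tables share WT or KO libraries as named below. The summed level of 5 pluripotency genes in WT was 78761 to 85197 reads over the ESC tables and 6130 to 10485 over NP tables, and that of 5 neural precursor genes was 1208 to 1748 and 11951 to 21065. The labels do not say that samples of a group came from separate cultures, so the p-values measure only the spread between these samples. In bulk RNA, fewer cells of a type and less RNA per cell cannot be told apart.

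Most of these genes lie at deposited PRC2 regions. The authors deposited a list of 6882 H3K27me3 regions and 1 of 2865 Suz12 regions from ESC. The headers do not state the group that WT was compared with or the direction of change, so the lists were used only for where regions lie. Of 25 genes with a start in the RefSeq promoter table (build GRCm38.p6), 22 had an H3K27me3 region and a Suz12 region within 2500 bp of that start. The exceptions were Wnt8b, Fzd5 and Fzd7. Among 16828 protein-coding genes with a start in that table, 18.6% had an H3K27me3 region there and 9.52% a Suz12 region. Over the whole gene with 2500 bp on either side, which covers every gene described, 32 of 37 met an H3K27me3 region, against 23.0% of 20988 coding genes, and 31 of 37 a Suz12 region, against 12.2%. Fzd5, Fzd7, Sfrp4, Dkk3 and Dkk4 met neither mark in that wider window, and Wnt8a met H3K27me3 only. Wide regions meet such a window more readily than narrow ones, and no like median for all coding genes was worked out. With that limit, the 50 H3K27me3 regions at these genes had a median width of 5051 bp, against 3144 bp over the list.

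The neighbouring ligand genes Wnt6 and Wnt10a share 1 of the broadest of them, chr1:74779989-74809959 (mm10, per the submitters' processing notes), which is 29971 bp wide. Wnt1 lies inside a region of 24110 bp, chr15:98786427-98810536. Wnt9b and Wnt3 are also neighbours, with overlapping spans on chromosome 11, and share the region chr11:103767929-103778446. The 250 bases upstream of the start are printed for 4 ligands that the results turn on, from the RefSeq promoter table and with each CG dinucleotide in capitals. Wnt1 (chr15:98789607-98789856, plus strand) had the largest fall, Wnt3 (chr11:103773925-103774174, plus strand) the strongest rise in CSex4 ESC, Wnt6 (chr1:74771642-74771891, plus strand) was called in both cell states, and Wnt8b (chr19:44493222-44493471, plus strand) was called nowhere and has no region at its start.
Wnt1: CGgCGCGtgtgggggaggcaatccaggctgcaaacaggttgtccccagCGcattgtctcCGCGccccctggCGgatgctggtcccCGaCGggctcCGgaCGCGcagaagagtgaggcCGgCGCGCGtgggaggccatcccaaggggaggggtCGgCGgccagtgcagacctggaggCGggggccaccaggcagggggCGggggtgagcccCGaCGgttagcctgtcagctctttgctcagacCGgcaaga
Wnt3: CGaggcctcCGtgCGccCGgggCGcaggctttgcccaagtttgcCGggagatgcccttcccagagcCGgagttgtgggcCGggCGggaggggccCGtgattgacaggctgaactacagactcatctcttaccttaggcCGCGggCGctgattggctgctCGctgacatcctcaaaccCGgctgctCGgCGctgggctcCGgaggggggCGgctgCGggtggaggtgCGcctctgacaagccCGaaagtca
Wnt6: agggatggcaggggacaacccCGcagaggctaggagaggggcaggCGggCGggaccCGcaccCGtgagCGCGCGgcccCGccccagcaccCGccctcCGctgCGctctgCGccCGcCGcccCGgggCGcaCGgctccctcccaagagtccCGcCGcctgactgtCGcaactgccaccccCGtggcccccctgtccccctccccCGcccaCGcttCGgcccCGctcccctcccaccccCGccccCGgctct
Wnt8b: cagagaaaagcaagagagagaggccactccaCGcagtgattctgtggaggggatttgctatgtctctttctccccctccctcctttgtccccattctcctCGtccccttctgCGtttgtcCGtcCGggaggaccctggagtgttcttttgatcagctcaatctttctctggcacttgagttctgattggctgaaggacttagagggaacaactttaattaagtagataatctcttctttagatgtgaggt
These windows hold 23 CG dinucleotides in Wnt1, 22 in Wnt3, 28 in Wnt6 and 5 in Wnt8b. The median over the 28 windows of these genes was 22.0, against 10 over 20454 windows of all coding genes, and the median GC content was 69.4% against 56.0%. On either strand, the TCF-type letters CTTTGAT were found in 2 of the 28 windows and in 2.81% of all windows. The letters CTTTGAA were found in 1 of the 28 and in 3.99% of all.

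Across the 13 tables, 30 of the 37 genes were called at least once at an adjusted p under 0.05, 18 of them in at least 1 ESC table and 29 in at least 1 NP table. The counts below come from the authors' deposited tables and stand beside the share of all tested genes that was called. In ESC, CSex4 had 5 of 28 tested members called, all higher than WT (2.41% of all genes tested, 1.72% higher and 0.695% lower). ESC Deltaex4 had 0 of 36, none of them at an unadjusted p under 0.05 in DESeq2 either (0% of all genes). ESC KO had 10 of 32, 9 higher and 1 lower (18.3%, 11.0% higher and 7.27% lower). ESC KO-L had 5 of 28, 4 higher and 1 lower (2.23%, 1.46% higher and 0.771% lower). ESC KO-S had 6 of 26, 3 in each direction (7.91%, 4.28% higher and 3.63% lower). ESC KO-L3D had 6 of 27, 3 in each direction (18.3%, 8.22% higher and 10.1% lower). ESC KO-S3D had 0 of 25, with 1 at an unadjusted p under 0.05 in DESeq2 (3.23%, 2.05% higher and 1.18% lower). In ESC the members' shares in CSex4 and KO-L were, in proportion, furthest above those of all genes, and those in KO-L3D and KO-S3D were near or below them. In NP, CSex4 had 5 of 33, all lower than WT (5.53%, 4.08% higher and 1.45% lower). NP Deltaex4 had 0 of 37, with 2 at an unadjusted p under 0.05 in DESeq2 (0.0809%, 0.0289% higher and 0.0520% lower). NP KO had 17 of 35, 12 higher and 5 lower (21.4%, 11.6% higher and 9.85% lower). The separate table of NP WT against KO, with the other 2 WT libraries, had 24 of 36, 16 higher and 8 lower in KO (32.9%, of which 17.3% higher in KO and 15.6% lower). Against KO, NP KO-L had 15 of 36, 5 higher and 10 lower (24.7%, 10.9% higher and 13.8% lower), and NP KO-S had 19 of 34, 11 higher and 8 lower (34.5%, 16.4% higher and 18.0% lower). The heat map of fold changes shows these calls gene by gene.

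**Figure D1:**
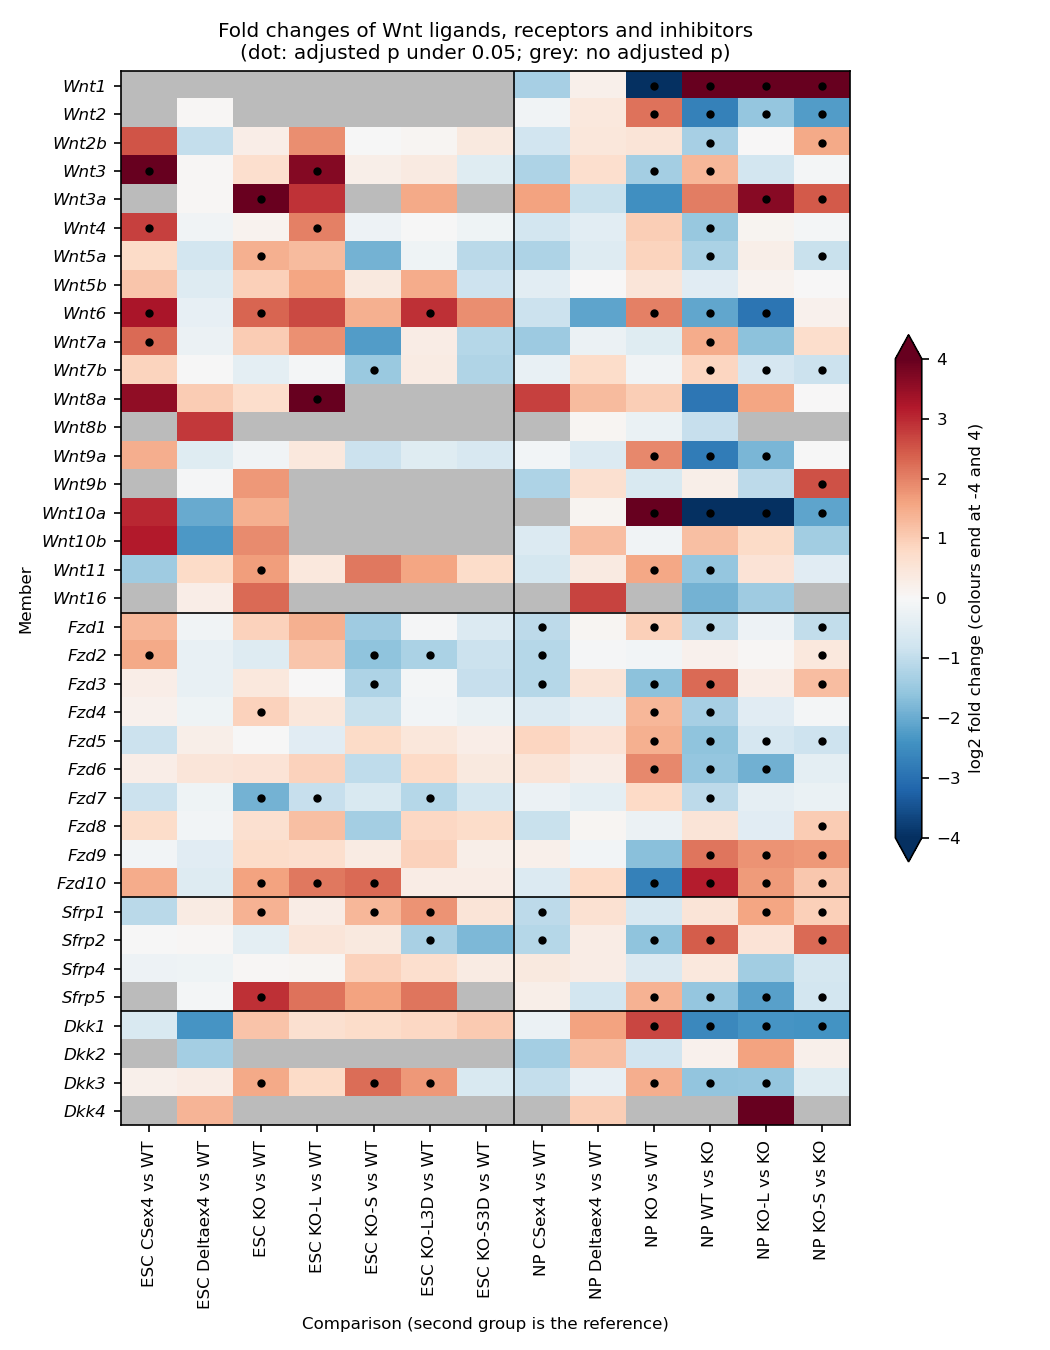
The colour of each cell is the deposited log2 fold change of 1 gene (rows, by family) in 1 comparison (columns, reference group named second); colours end at -4 and 4, black dots mark an adjusted p under 0.05 and grey cells have no adjusted p. The 5 dots in the column of ESC CSex4 are all on red cells, and the 5 in the column of NP CSex4 all on blue cells.

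Among the ligands in ESC, Wnt3 and Wnt4 were higher in the cells with constitutive exon 4 and in the knock-out with the long isoform put back. Wnt3, a ligand needed for primitive streak formation (chr11:103774175-103818021, GRCm38.p6), had an estimated 26.0 normalised reads in WT and 418 in CSex4. The log2 fold change in the authors' deposited table was 4.01 ± 0.67 (SE, adjusted p = 5.63e-06). In KO-L it had 309 reads against 24.5 in WT, with a log2 fold change of 3.66 ± 0.67 in the authors' deposited table (adjusted p = 2.32e-05). The other ESC groups lay between 23.2 (KO-S3D) and 59.4 (KO), close to the WT range over tables of 24.5 to 37.4. Because the spans of Wnt3 and Wnt9b overlap and the counting is not stated, reads of the pair may not be separable. Wnt9b was at 6.55 reads in CSex4. Wnt4, a ligand known from kidney and gonad development (chr4:137277635-137299501), followed the same order, with 691 reads in CSex4 and 386 in KO-L against a median of 105 in WT, and 89.2 to 129 in the other groups. Its log2 fold changes in the authors' deposited tables were 2.72 ± 0.57 in CSex4 (adjusted p = 5.75e-04) and 2.02 ± 0.53 in KO-L (adjusted p = 0.0124).

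Wnt6, which is expressed in many embryonic epithelia (chr1:74754342-74785322), was called in 3 ESC comparisons. It had 142 reads in CSex4, 105 in KO-L3D and 78.4 in KO, against 12.9 to 15.6 in WT over the tables. In the authors' deposited tables its log2 fold changes were 3.25 ± 0.82 in CSex4 (adjusted p = 0.00766), 2.92 ± 0.85 in KO-L3D (adjusted p = 0.00635) and 2.33 ± 0.58 in KO (adjusted p = 8.86e-04). KO-L had 80.3 reads, as many as KO, but its value of 2.63 ± 0.91 did not pass the test in the authors' deposited table (adjusted p = 0.112). Wnt7a, a ligand known from limb patterning, had 165 reads in CSex4 and 34.4 in WT, with a log2 fold change of 2.26 ± 0.68 in the authors' deposited table (adjusted p = 0.0440). This call was lost when p-values were adjusted over all genes without a filter (adjusted p = 0.0651 by Benjamini-Hochberg). Wnt8a, a ligand of the early posterior embryo, had 107 reads in KO-L and 4.91 in WT, with a log2 fold change of 4.45 ± 1.02 in the authors' deposited table (adjusted p = 0.00203). In CSex4 Wnt8a stood at 59.2 reads, which did not pass the test (adjusted p = 0.0984 in the authors' deposited table).

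In the full knock-out Wnt3a, Wnt5a and Wnt11 were called beside Wnt6 in ESC. Wnt3a, a partner of Wnt1 in dorsal neural tissue, had 79.9 reads in KO and 5.14 in WT, a log2 fold change of 3.96 ± 0.69 in the authors' deposited table (adjusted p = 3.20e-07). Wnt5a, which acts mainly through beta-catenin-independent routes, had 113 reads against 41.8, and Wnt11, of the same kind, 64.2 against 20.3. Their log2 fold changes in the authors' deposited table were 1.43 ± 0.50 (adjusted p = 0.0281) and 1.66 ± 0.61 (adjusted p = 0.0400). In KO-L, Wnt5a had 111 reads and Wnt3a 38.0, and neither was called, with 1.26 ± 0.81 and 2.88 ± 1.31 in the authors' deposited table. In the KO table Wnt3 had 59.4 reads in KO against 37.4 and Wnt4 had 129 against 116, and neither was called. No difference between KO and CSex4 or KO-L was tested. A single ligand was lower in an ESC comparison: Wnt7b had 226 reads in KO-S and 636 in WT, a log2 fold change of -1.49 ± 0.46 in the authors' deposited table (adjusted p = 0.0192). Wnt7b overlaps the gene AU022754, from which its reads may not be separable.

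**Figure D2:**
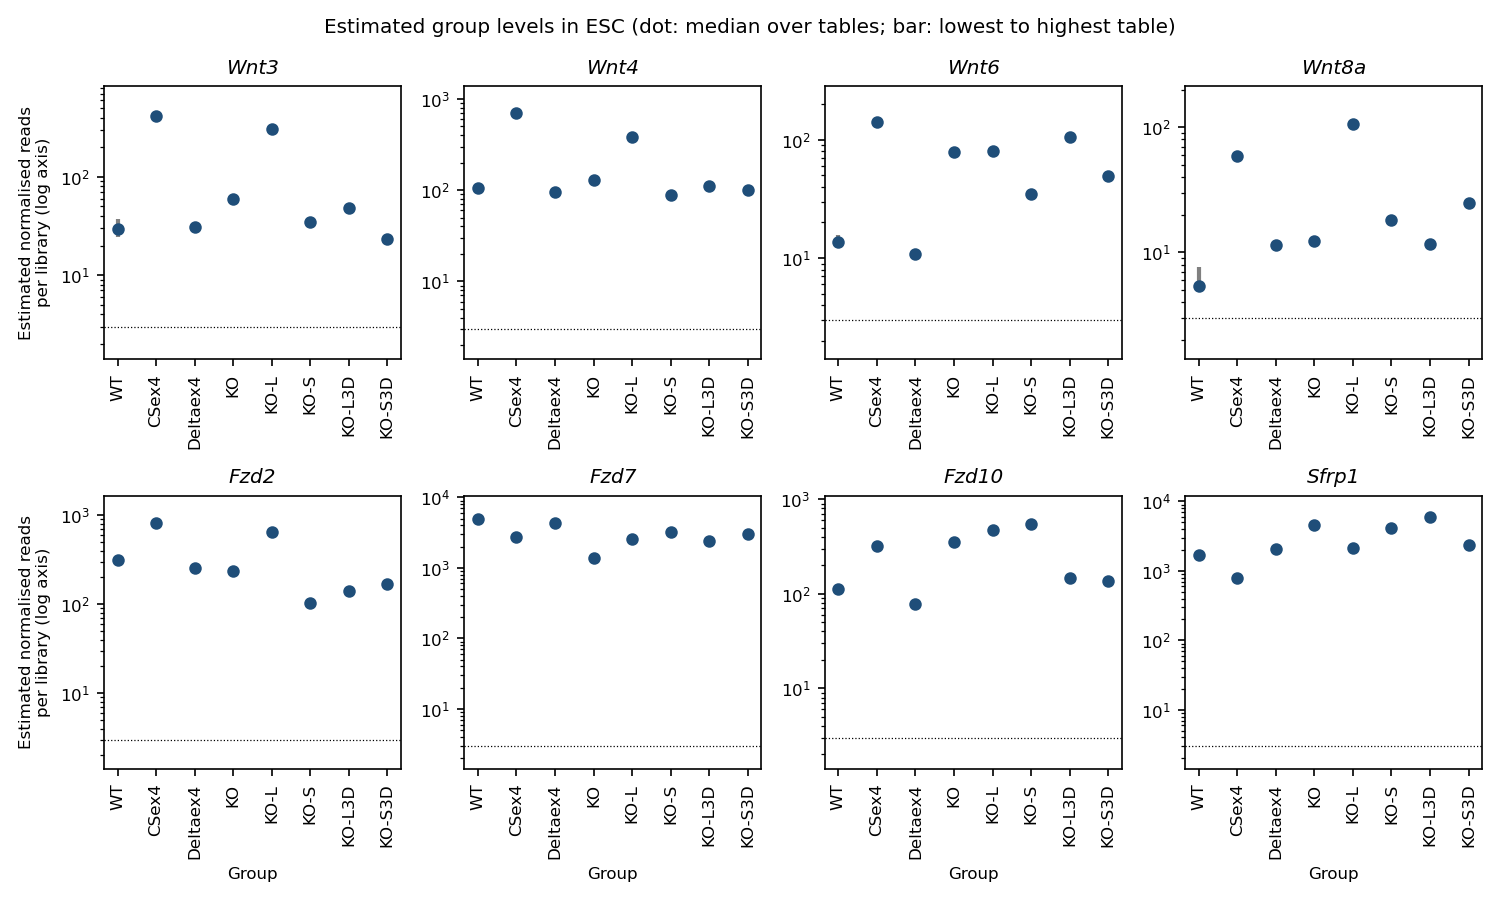
Each panel gives 1 gene and each dot the estimated normalised reads per library of an ESC group (log axis), with a grey bar over the range of WT estimates from the 7 tables and a dotted line at 3 reads. Wnt3 and Wnt4 are high in CSex4 and KO-L and near WT elsewhere, Fzd7 is below WT in each other group shown, and Sfrp1 is highest in KO-L3D, KO and KO-S.

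Among the receptors, Fzd2, Fzd7 and Fzd10 were each called in 3 ESC comparisons. Fzd7, a frizzled receptor known to act in ESC, had 4853 to 5251 reads in WT over the tables and 1393 in KO. The log2 fold change in the authors' deposited table was -1.88 ± 0.22 (adjusted p = 2.29e-15), and Fzd7 has no H3K27me3 or Suz12 region in its wider window. It was also lower in KO-L3D, with 2399 reads, and in KO-L, with 2587 reads. The authors' deposited tables give these as -1.13 ± 0.29 (adjusted p = 0.00165) and -0.93 ± 0.28 (adjusted p = 0.0479). The KO-L call was lost when p-values were adjusted over all genes (adjusted p = 0.0709 by Benjamini-Hochberg). The remaining ESC groups had 2715 (CSex4), 3063 (KO-S3D), 3208 (KO-S) and 4279 reads (Deltaex4), with no call. Fzd10 had 111 to 120 reads in WT. It had 349 in KO, 543 in KO-S and 476 in KO-L. Its log2 fold changes in the authors' deposited tables were 1.62 ± 0.31 (adjusted p = 5.08e-06), 2.27 ± 0.39 (adjusted p = 8.58e-07) and 2.10 ± 0.43 (adjusted p = 3.16e-04), in that order. The rescues with the 3D mutation had 147 (KO-L3D) and 137 reads (KO-S3D), values that were not called.

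Fzd2 was called in opposite directions. It had 828 reads in CSex4 against 290 in WT, with a log2 fold change of 1.51 ± 0.45 in the authors' deposited table (adjusted p = 0.0341). It had 102 reads in KO-S and 142 in KO-L3D, where the authors' deposited tables give -1.61 ± 0.45 (adjusted p = 0.00802) and -1.26 ± 0.45 (adjusted p = 0.0332). The KO-L3D call was lost when fold changes were centred on the median gene, which stood at -0.15 in that table (adjusted p = 0.0716), and the CSex4 call when p-values were adjusted over all genes (adjusted p = 0.0505, both by Benjamini-Hochberg). Fzd3 had 156 reads in KO-S against 373, a log2 fold change of -1.25 ± 0.39 in the authors' deposited table (adjusted p = 0.0233). Fzd4, whose span overlaps that of Tmem135, had 148 reads in KO against 78.4, a log2 fold change of 0.91 ± 0.32 in the authors' deposited table (adjusted p = 0.0303). Fzd1, Fzd5, Fzd6, Fzd8 and Fzd9 were called in no ESC table.

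Among the secreted inhibitors, Sfrp1 and Dkk3 were called in the same 3 ESC comparisons. Sfrp1 had 1641 to 1743 reads in WT over these tables, 4587 in KO, 4127 in KO-S and 6021 in KO-L3D. Its log2 fold changes in the authors' deposited tables were 1.40 ± 0.19 (adjusted p = 3.95e-11), 1.33 ± 0.29 (adjusted p = 2.88e-04) and 1.79 ± 0.28 (adjusted p = 2.54e-08). Dkk3, a divergent member of the dickkopf family, had 104 to 110 reads in WT, 316 in KO, 484 in KO-S and 364 in KO-L3D. In the authors' deposited tables its log2 fold changes were 1.51 ± 0.31 (adjusted p = 2.91e-05), 2.22 ± 0.45 (adjusted p = 4.10e-05) and 1.73 ± 0.47 (adjusted p = 0.00356). KO-L had 2147 reads of Sfrp1 and 176 of Dkk3, and neither was called. Sfrp5 had 73.3 reads in KO against 9.63, a log2 fold change of 2.93 ± 0.60 in the authors' deposited table (adjusted p = 2.44e-05). Sfrp2 had 228 reads in KO-L3D against 556, a log2 fold change of -1.29 ± 0.38 in the authors' deposited table (adjusted p = 0.00853). Dkk1, the best known Lrp antagonist of the family, had 4.44 to 66.6 reads over the ESC groups and was called in none.

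The differences between rescues in ESC were tested as differences of deposited log2 fold changes, each with the combined standard error, which is too large where 2 tables share WT libraries, so that few differences can be called. KO-S differed from KO-L in 2 of 27 members tested (3.94% of all genes tested): Fzd2 by -2.71 (95% interval -3.99 to -1.43, adjusted p = 0.00231 by Benjamini-Hochberg) and Fzd6, lower in KO-S at 168 reads than in KO-L at 638, by -1.94 (interval -2.99 to -0.89, adjusted p = 0.0125). For Wnt3 the difference was -3.42 (interval -5.76 to -1.09, adjusted p = 0.0814) and for Wnt4 -2.21 (interval -3.77 to -0.64, adjusted p = 0.101), so that the contrast between these isoforms was not called for either ligand. KO-L3D and KO-L also stood apart in Suz12 itself, at 1872 and 3062 reads, beside 1829 in KO without a rescue. KO-S3D and KO-S stood at 6272 and 3562 reads of Suz12. The part of these levels in the contrasts between rescues was not tested. KO-L3D differed from KO-L in 3 of 26 members (4.88% of all genes). These were Fzd2, by -2.36 (interval -3.64 to -1.08, adjusted p = 0.0123), Sfrp1, by 1.48 (interval 0.54 to 2.42, adjusted p = 0.0455), and Sfrp2, by -1.76 (interval -2.90 to -0.63, adjusted p = 0.0478). Between KO-S3D and KO-S 0 of 27 were called (0.732% of all genes); for Dkk3 the difference was -2.85 (interval -4.50 to -1.19, adjusted p = 0.0792). Between CSex4 and Deltaex4 0 of 25 were called in ESC (0.0766% of all genes), with Wnt3 at 3.95 (interval 1.41 to 6.48, adjusted p = 0.323).

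Markers of other cell types moved in the same ESC comparisons. In CSex4, 2 of 5 pluripotency genes were lower, with a summed level of 43724 reads against 80088 in WT. Of 5 mesoderm genes T was higher, with the list at 312 reads against 73.9, and of 4 fibroblast genes Col1a1 and Col1a2 were higher, with the list at 1313 against 332. In KO-L, 2 of 5 mesoderm genes (T and Hand1) and 2 of 4 fibroblast genes (Col1a1 and Col1a2) were higher, with the lists at 422 against 72.9 and 2120 against 321 reads, and 0 of 5 pluripotency genes was called, with 59981 against 79785. The list of 5 neural precursor genes had no call but stood at 8566 reads in CSex4 and 4489 in KO-L, against 1208 and 1223 in WT. Mesp1 and Dcn were under 1 read in WT, and Mesp1 also in CSex4. In KO, T and Hand1 were higher, with the mesoderm list at 569 reads against 83.7, and Nanog, Thy1 and Aldh1l1 were higher as well. In KO-L3D Hand1, Nanog, Thy1 and Aldh1l1 were higher and Pax6, Map2 and Col1a2 lower, with the mesoderm list at 3488 reads against 80.0. In KO-S Sox1, Hand1, Thy1 and Aldh1l1 were higher and Pax6 lower, and the endoderm list stood at 3778 reads against 369 with no call. In KO-S3D Col1a1 and Col1a2 were lower, and the mesoderm list stood at 2414 reads against 187 with no call. Their part in the ligand, receptor and inhibitor results of ESC was not tested.

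In NP, the ligand with the largest change was Wnt1, the dorsal midline ligand of the neural tube (chr15:98789857-98793830). It had an estimated 1231 normalised reads in WT and 10.3 in KO, a 119-fold lower level. The log2 fold change in the authors' deposited table was -6.90 ± 0.55 (adjusted p = 1.41e-32). With the other 2 WT libraries it had 1217 reads in WT and 10.5 in KO, and WT exceeded KO by 6.86 ± 0.54 in the authors' deposited table (adjusted p = 6.72e-35). In ESC its mean over libraries was at most 0.495 reads in any table. Wnt3 was lower too, with 155 reads in KO against 399, a log2 fold change of -1.36 ± 0.53 in the authors' deposited table (adjusted p = 0.0488). It was close to the threshold, with an adjusted p of 0.0634 by Benjamini-Hochberg over all genes, and WT exceeded KO by 1.34 ± 0.47 with the other WT libraries in the authors' deposited table (adjusted p = 0.0155).

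The other 5 called ligands were higher in NP KO. Wnt10a had 107 reads in KO and 3.75 in WT, close to the limit of 3 reads, with a log2 fold change of 4.84 ± 0.97 in the authors' deposited table (adjusted p = 1.22e-05). Its neighbour Wnt6 had 591 reads in KO and 148 in WT, a log2 fold change of 2.0 ± 0.45 in the authors' deposited table (adjusted p = 1.15e-04). Wnt9a had 1096 reads against 289, Wnt2, a ligand of lung and heart mesoderm, 168 against 37.7, and Wnt11 271 against 91.9. Their log2 fold changes in the authors' deposited table were 1.93 ± 0.39 (adjusted p = 1.16e-05), 2.16 ± 0.66 (adjusted p = 0.00821) and 1.56 ± 0.55 (adjusted p = 0.0247). With the other 2 WT libraries 5 more ligands passed the test: Wnt2b, Wnt4 and Wnt5a, lower in WT than in KO, and Wnt7a and Wnt7b, higher in WT. Wnt7a had 302 reads in these WT libraries and 142 to 144 in the first pair, so the pairs of WT libraries were themselves apart.

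Receptors in NP KO were split between rises and falls. Fzd1, Fzd4, Fzd5 and Fzd6 were higher, with 2004 reads against 1032, 1766 against 703, 1010 against 379 and 1995 against 523 in WT. In the authors' deposited table their log2 fold changes ran from 0.96 ± 0.35 for Fzd1 (adjusted p = 0.0338) to 1.93 ± 0.41 for Fzd6 (adjusted p = 4.09e-05). Fzd10 was lower, with 289 reads against 1865, a log2 fold change of -2.69 ± 0.52 in the authors' deposited table (adjusted p = 4.33e-06). Fzd3, a receptor known for axon guidance, had 2659 reads in KO against 8305, a log2 fold change of -1.64 ± 0.43 in the authors' deposited table (adjusted p = 0.00117). In the table with the other WT libraries all 6 were called in the same direction, and there Fzd7 was also higher and Fzd9 also lower in KO.

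Inhibitors in NP KO were likewise split. Dkk1 had 224 reads in KO against 35.5, a log2 fold change of 2.66 ± 0.74 in the authors' deposited table (adjusted p = 0.00282). Dkk3 had 1749 against 638 and Sfrp5 1156 against 445, with log2 fold changes of 1.45 ± 0.36 (adjusted p = 5.60e-04) and 1.38 ± 0.49 (adjusted p = 0.0253) in the authors' deposited table. Sfrp2 had 609 reads in KO against 1841, a log2 fold change of -1.60 ± 0.36 in the authors' deposited table (adjusted p = 1.06e-04). The 17 members called here were all called again with the other WT libraries, 12 higher and 5 lower in KO. Both tables contain the same 2 KO libraries, so this repeats the WT side only. The pairs of WT libraries differed in level for several members: Sfrp2 had 1841 reads in the first pair and 3575 in the other, Fzd3 8305 and 12294, and Wnt9a 289 and 169. The neural precursor markers summed to 12202 and 21065 reads in these pairs and the neuron markers to 15981 and 30973. Their part in the calls made with either pair was not tested.

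**Figure D3:**
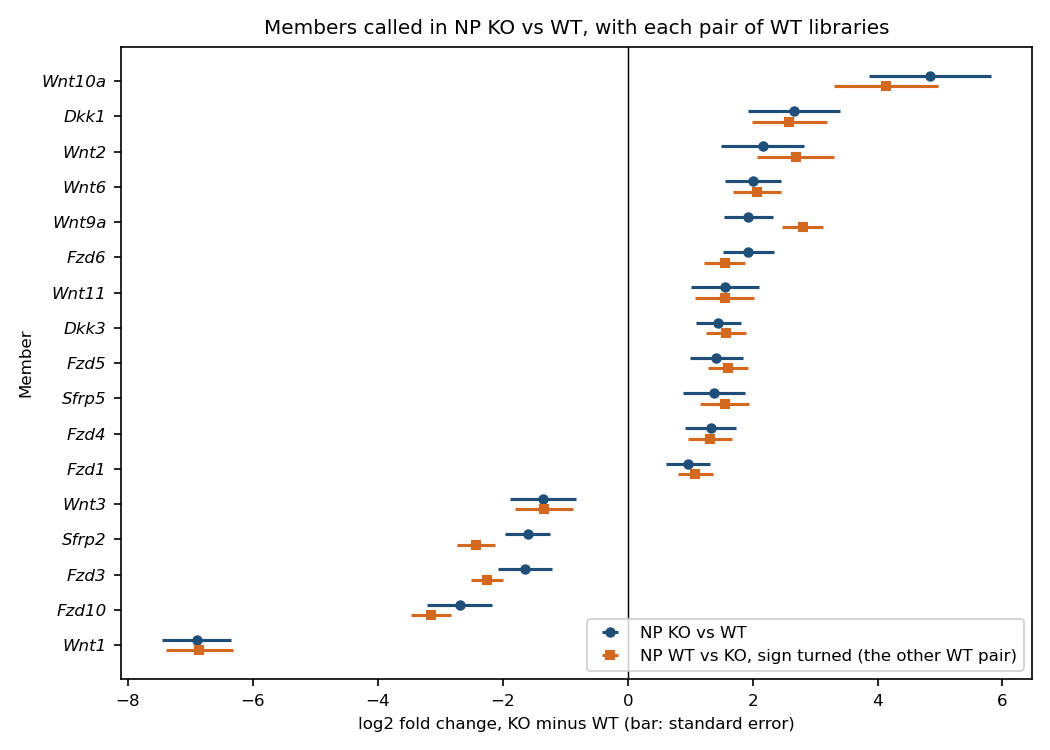
Points give the deposited log2 fold change of KO against WT in NP (bars: standard error) for the 17 called members, blue circles with the first 2 WT libraries and orange squares with the other 2, after the sign was turned; both use the same KO libraries. Wnt1 lies near -6.90 in both, and Wnt10a has the largest rise, 4.84 and 4.14.

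Cell type markers shifted strongly in the same comparison. In NP KO 4 of 5 neural precursor genes were lower, with a summed level of 2771 reads against 12202, and 3 of 3 neuron genes, with 1241 against 15981. Of 5 endoderm genes 3 were higher and 1 lower, with 14301 reads against 11057, and of 3 astrocyte genes 1 was higher, with 262 against 46.7. Of 5 pluripotency genes Sox2, which neural precursors also express, was lower, with the list at 4684 reads against 10485, and with the other WT libraries Pou5f1, Esrrb and Zfp42 were higher in KO. Of 4 fibroblast genes Col1a1 was lower, with 935 reads against 2362. This list depended on the WT pair: with the other WT libraries Dcn and Thy1 were higher in KO, with 987 reads against 770. No neural precursor or endoderm marker was under 1 read in either group. Their part in the changes of the ligands, receptors and inhibitors was not tested.

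The rescues in NP were compared with KO and share its 2 libraries, so their values are given side by side. Wnt1 rose in both: it had 151 reads in KO-L against 8.26 in KO, and 213 in KO-S against 8.74 in KO, beside 1102 to 1231 in WT over the tables. Its log2 fold changes in the authors' deposited tables were 4.19 ± 0.70 (adjusted p = 4.66e-08) and 4.61 ± 0.62 (adjusted p = 3.63e-12). Wnt3a had 135 reads with the long isoform (10.8 in KO) and 60.6 with the short one (11.0 in KO), with log2 fold changes of 3.64 ± 0.67 (adjusted p = 6.64e-07) and 2.46 ± 0.88 (adjusted p = 0.0189) in the authors' deposited tables. Dkk1 fell to 38.5 and 39.3 reads, beside 35.5 to 40.0 in WT, with log2 fold changes of -2.37 ± 0.50 (adjusted p = 2.72e-05) and -2.40 ± 0.55 (adjusted p = 1.04e-04) in the authors' deposited tables. Wnt10a fell to 3.57 reads with the long isoform and to 23.2 with the short one, with log2 fold changes of -4.75 ± 0.89 (adjusted p = 1.27e-06) and -2.12 ± 0.66 (adjusted p = 0.00567) in the authors' deposited tables.

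Direct differences between the isoform rescues were called for 10 of 33 members in NP (10.3% of all genes tested), 9 of them with the higher value in KO-S. The standard error of these differences is too large because both tables hold the KO libraries. The largest was in Wnt6, which had 69.2 reads in KO-L and 622 in KO-S, beside 528 to 629 in KO and 148 to 155 in WT. Its difference was 3.09 (95% interval 2.26 to 3.93, adjusted p = 6.93e-11 by Benjamini-Hochberg). Wnt9a had the same order, with 1027 reads in KO-S against 276 in KO-L, and a difference of 1.83 (interval 1.16 to 2.49, adjusted p = 4.58e-06). Fzd6 had 465 reads in KO-L and 1400 in KO-S, a difference of 1.52 (interval 0.94 to 2.10, adjusted p = 1.63e-05). For the inhibitors Sfrp5 and Dkk3 the differences were 1.44 (interval 0.72 to 2.16, adjusted p = 0.00208) and 1.05 (interval 0.33 to 1.77, adjusted p = 0.0435), with 216 and 530 reads in KO-L and 612 and 1146 in KO-S. In these 5 genes KO-L lay below both KO and KO-S.

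In the other 5 members with a called difference KO-S was called against KO and KO-L was not. Sfrp2 had 2771 reads in KO-S and 807 in KO-L, beside 546 to 662 in KO, a difference of 1.70 (interval 1.08 to 2.33, adjusted p = 4.71e-06). Fzd3 had 5306 reads in KO-S and 2616 in KO-L, a difference of 0.95 (interval 0.45 to 1.46, adjusted p = 0.00419). Fzd8 had 1303 and 446 reads, a difference of 1.48 (interval 0.79 to 2.17, adjusted p = 7.54e-04), and Wnt2b, which overlaps St7l, 588 and 202, a difference of 1.49 (interval 0.52 to 2.46, adjusted p = 0.0289). Wnt5a was the single called member with the lower value in KO-S, at 518 reads against 1066 in KO-L, by -1.12 (interval -1.84 to -0.41, adjusted p = 0.0242). For Wnt1 the isoforms differed by 0.42 (interval -1.43 to 2.26) and for Dkk1 by -0.04 (interval -1.50 to 1.43), and neither difference was called. The neural precursor list stood at 5805 reads in KO-L, with 3 of 5 genes higher and 1 lower than in KO, and at 10632 in KO-S, with 5 of 5 higher. The fibroblast list stood at 6109 and 1907 reads, with 2 of 4 genes higher in each, and the pluripotency list at 19519 and 5675, with 4 of 5 genes higher in KO-L and 1 higher and 1 lower in KO-S. The endoderm list stood at 4786 and 9461 reads, with 3 of 5 genes lower than in KO in KO-L and 4 of 5 in KO-S. The neuron list stood at 6050 and 6601 reads, with 3 of 3 genes higher than in KO in each. In the mesoderm list (764 and 1462 reads) Tbx6 was higher in KO-L, and Meox1 was higher and Hand1 lower in KO-S. Of 3 astrocyte genes Aqp4 was lower in KO-L and Aldh1l1 in KO-S. The part of these markers in the differences between the rescues was not tested.

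**Figure D4:**
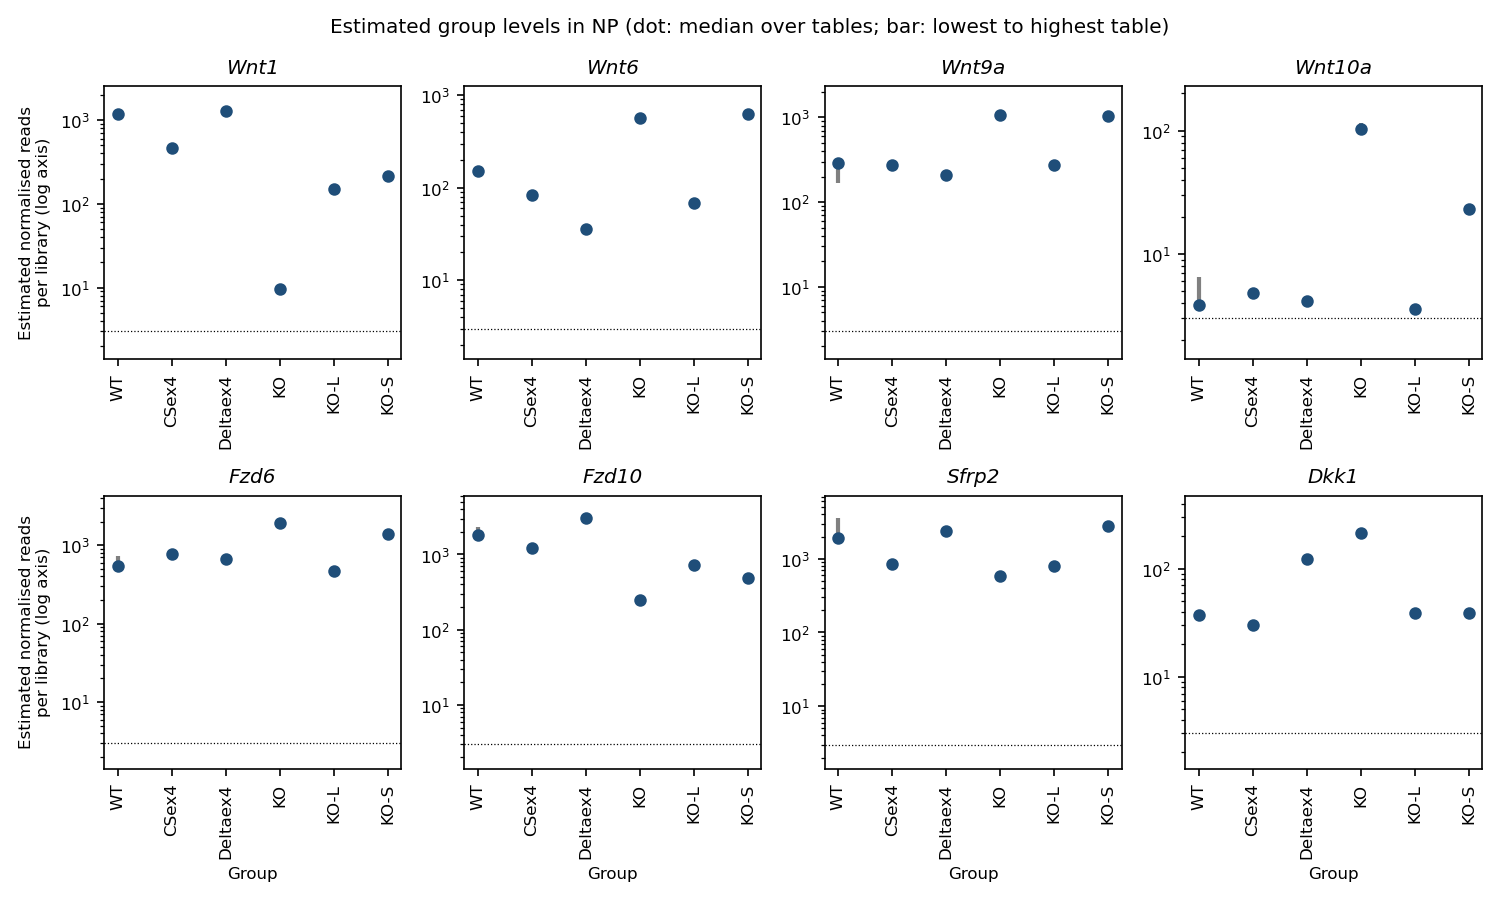
Each panel gives 1 gene and each dot the median of the estimated normalised reads per library of an NP group (log axis). Grey bars give the range of the WT and of the KO estimates, from 4 tables each, and a dotted line marks 3 reads. In the panels of Wnt6, Wnt9a and Fzd6 KO-S lies at or near KO and KO-L well below it, and in the panel of Dkk1 both rescues lie at the WT level.

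In CSex4 NP 3 receptors and 2 inhibitors were lower than in WT and no ligand was called. Fzd2 had 1256 reads against 2777, Fzd1 507 against 1044, Fzd3 3761 against 8321, Sfrp1 2149 against 4444 and Sfrp2 838 against 1864. Their log2 fold changes in the authors' deposited table lay between -1.15 and -1.04 (adjusted p = 0.010 for Fzd2, the lowest, and 0.0485 for Fzd1, the highest). Fzd1 and Fzd3 lost the call when p-values were adjusted over all genes (adjusted p = 0.0663 and 0.0639 by Benjamini-Hochberg). Wnt1 had 466 reads against 1162, a log2 fold change of -1.32 ± 0.47 that was not called in the authors' deposited table (adjusted p = 0.0782). Between CSex4 and Deltaex4 NP 1 of 34 members differed (1.78% of all genes), Sfrp1, by -1.66 (interval -2.50 to -0.82, adjusted p = 0.0116). In CSex4 against WT 4 of 5 pluripotency genes were higher, with a summed level of 36249 reads against 9714, and 3 of 5 neural precursor genes lower, with 5622 against 12085, and no marker of either list was under 1 read. Of 5 mesoderm genes Hand1 was higher, and the list stood at 1158 reads against 596. The log2 fold change of Hand1 was 2.50 ± 0.38 in the authors' deposited table. The part of these markers in the lower Fzd and Sfrp values was not tested.

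The Deltaex4 tables had no called member, and they call few genes at all. The spread of their test statistic over genes was 0.557 in ESC and 0.570 in NP, where unchanged groups would give 1, so a missing call there does not show that a gene was unchanged. The members' fold changes ranged from -2.36 to 2.84 in ESC and from -2.11 to 2.71 in NP on the log2 scale in the authors' deposited tables. Both upper ends came from genes near or under the limit of 3 reads. In ESC this was Wnt8b, at most 0.354 reads in WT and 2.53 in Deltaex4. In NP it was Wnt16, at 2.04 to 4.39 reads in WT over the tables and 13.6 in Deltaex4. In NP Deltaex4 Wnt6 had 35.9 reads against 155 and Sfrp1 6869 against 4497, both at an unadjusted p under 0.05 (adjusted p = 0.594 and 1.000 in the authors' deposited table).

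The effect of the full knock-out differed between ESC and NP in 9 of the 28 members tested (14.3% of all genes tested). These 2 tables share no library. In 5 of the 9 the effect was higher in ESC. Wnt3a differed most, with values in the authors' deposited tables of 3.96 ± 0.69 for ESC and -2.46 ± 1.01 for NP, a difference of 6.41 (95% interval 4.02 to 8.80, adjusted p = 6.20e-06 by Benjamini-Hochberg). Fzd10 rose in ESC and fell in NP, a difference of 4.31 (interval 3.13 to 5.49, adjusted p = 1.55e-10). Fzd7 went the other way, with values in the authors' deposited tables of -1.88 ± 0.22 for ESC and 0.81 ± 0.34 for NP, a difference of -2.69 (interval -3.49 to -1.90, adjusted p = 4.62e-09). The NP values of Wnt3a and Fzd7 given here were not called on their own. With the other WT libraries Fzd7 was called and Wnt3a was not. Fzd9, Fzd3 and Sfrp1 had the higher effect in ESC, and Wnt9a, Fzd5 and Fzd6 the higher effect in NP. Of the members higher in KO in both cell states, none had a called difference: it was 0.33 for Wnt6 (interval -1.11 to 1.76), 0.10 for Wnt11 (interval -1.51 to 1.71), -0.42 for Fzd4 (interval -1.44 to 0.61), 1.55 for Sfrp5 (interval 0.04 to 3.06) and 0.06 for Dkk3 (interval -0.87 to 0.99).

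**Figure D5:**
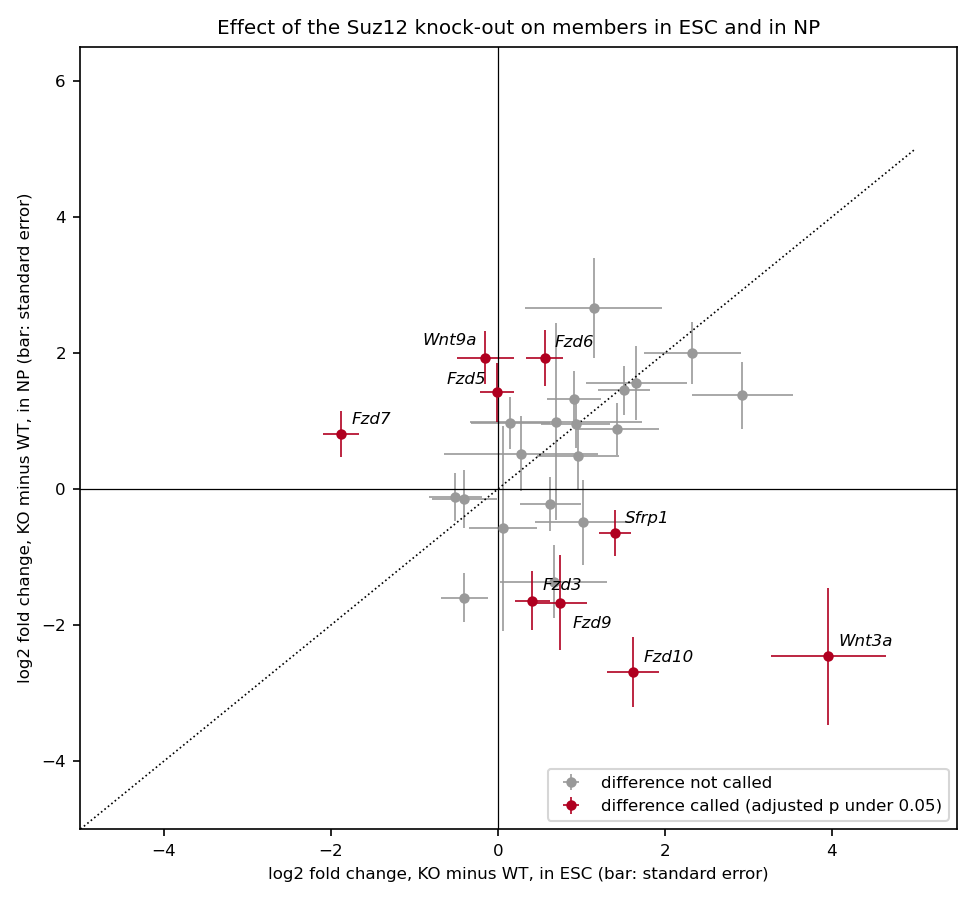
Each point is 1 of the 28 tested members, with the deposited log2 fold change of KO against WT in ESC (horizontal) and in NP (vertical), bars of 1 standard error and a dotted line where both are equal. The 9 red points differ between the cell states; Wnt3a and Fzd10 lie at the lower right and Fzd7 at the upper left.

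The rest of the pathway was followed in 4 lists, whose counts are read against the shares of all tested genes that were called: 2.41% in ESC CSex4, 2.23% in KO-L, 18.3% in KO, 7.91% in KO-S, 18.3% in KO-L3D, 3.23% in KO-S3D, and in NP 5.53% in CSex4 and 21.4% in KO. Of 17 beta-catenin target genes, a list that T shares with the mesoderm markers, 4 were higher in ESC CSex4 and none lower: T, a primitive streak factor, by 4.71 ± 0.82, Sp5 by 3.88 ± 0.65, Cdx2 by 3.07 ± 0.82 and Tnfrsf19 by 1.58 ± 0.43 on the log2 scale in the authors' deposited table. In ESC KO-L 5 were higher, among them T by 4.96 ± 0.80, Sp5 by 3.27 ± 0.68 and Axin2, a feedback inhibitor, by 1.57 ± 0.41 in the authors' deposited table. ESC KO had 8 higher and none lower, with Cdx1 at 4.24 ± 0.39 and Axin2 at 1.53 ± 0.30 in the authors' deposited table. The medians of the tested targets on the log2 scale were 1.35 in CSex4, 1.37 in KO-L, 1.00 in KO, 0.43 in KO-L3D, 0.06 in KO-S3D, -0.07 in KO-S and -0.42 in Deltaex4, so they were high in 3 of the 7 ESC groups. In CSex4, KO-L and KO the medians over all tested genes were -0.01, -0.02 and 0.01. In ESC KO-S 2 were higher and 1 lower, Lef1, by -4.95 ± 0.57 in the authors' deposited table, and in KO-L3D 3 were higher and Lef1 lower, by -5.84 ± 0.56 in the authors' deposited table. KO-S3D had 1 higher and 1 lower. In NP KO 2 of 16 tested targets were higher (Cdx2 and Bambi) and 4 lower, of which Sp8 fell by 2.65 and Axin2 by 1.40 on the log2 scale in the authors' deposited table.

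Of 23 genes for Wnt secretion and surface partners, Wls, the carrier that brings Wnt ligands to the cell surface, was higher in ESC CSex4 (1.67 ± 0.36), KO-L (1.60 ± 0.32) and KO (0.81 ± 0.23) and lower in KO-S (-1.57 ± 0.38) in the authors' deposited tables. It was the 1 list member called in CSex4 and in KO-L, while ESC KO had 7 higher and 1 lower and KO-S 2 in each direction. In NP KO 4 of 23 were higher and 2 lower, a share near that of all genes (21.4%), with the stem cell receptor Lgr5 at -2.36 ± 0.48 and its relative Lgr6 at 3.44 ± 0.81 in the authors' deposited table. With the other WT libraries 9 of 23 were higher and 2 lower in KO, against 32.9% of all genes. In NP CSex4 1 of 23 was higher, Porcn at 1.88 ± 0.31, and 3 were lower, against 5.53% of all genes. The lower ones were Wls at -1.47 ± 0.32, Rspo3 at -2.27 ± 0.73 and Lgr5 at -1.80 ± 0.44 in the authors' deposited table. A further list held 7 genes taken as other secreted antagonists, whose action on Wnt signalling was not measured here. Of these Dkkl1 was higher in ESC KO (2.04 ± 0.58), KO-S (2.42 ± 0.71), KO-L3D (3.17 ± 0.67) and KO-S3D (2.49 ± 0.68) in the authors' deposited tables. Frzb was lower in NP KO (-1.28 ± 0.41) and in NP CSex4 (-1.36 ± 0.35) in the same tables. Of 19 cytoplasmic and nuclear transducers none was called in ESC CSex4 or KO-L, and 2 were higher and 4 lower in ESC KO. In NP KO 2 were lower (Apc and Dvl1), a share below that of all genes with the first WT pair. With the other WT libraries 6 of 19 were lower and 1 higher in KO, against 32.9% of all genes, so this reading depends on the pair.

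Members with an H3K27me3 region had positive median fold changes in 4 of the 7 ESC comparisons and negative ones in 3. In CSex4 the 5 called members were all among the 24 tested ones with an H3K27me3 region in the wider window, whose median log2 fold change was 1.22. Over all coding genes with such a region the median was 0.18 and 4.67% were higher, and over those without one -0.05 and 0.801%. In KO 8 of 28 members with a region were higher and none lower, with a median of 0.95, beside 22.7% higher among all genes with a region. In KO-L 4 of 24 were higher and none lower, with a median of 1.24, beside 4.15% higher. In KO-S 2 of 22 were higher and 3 lower, with a median of -0.10, beside 10.4% higher and 7.90% lower among all genes with a region. In KO-L3D 2 of 23 were higher and 2 lower, with a median of 0.32, beside 13.4% and 6.36%. KO-S3D and Deltaex4 had no call among 21 and 31 tested members with a region, with medians of -0.27 and -0.15. The 4 tested members without a region had 1 higher (Dkk3) and 1 lower (Fzd7) in KO.

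The 7 genes called in no table were Wnt5b, Wnt8b, Wnt10b, Wnt16, Sfrp4, Dkk2 and Dkk4. Wnt16 stayed under a mean of 10 reads in all 13 tables, with 8.58 at most, and Dkk4 passed that mean in 1 table. Wnt5b, at 24.2 to 55.0 reads in ESC and 185 to 276 in NP, passed a mean of 10 in all tables. Its standard error was 0.49 in ESC KO and 0.80 to 1.26 in the other ESC tables, and its log2 fold changes ran from -0.84 to 1.59 in the authors' deposited tables. Its span overlaps Fbxl14. In ESC 25 of the 37 genes had a mean of at least 10 reads in all 7 tables, and in NP 32 had this in all 6. Wnt1, Wnt2, Wnt8b, Wnt9b, Wnt16, Dkk2 and Dkk4 reached it in no ESC table. Falls of these genes, or rises too small to lift that mean to 10 reads, could therefore hardly be called in ESC.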

How the data were processed

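RNA-seq of 32 samples and ChIP-seq of 55 entered the series. Per the submitters' processing notes, the authors used Bowtie, TopHat, DESeq2 and DiffBind and the builds mm10 and dm3; versions, annotation and counting are not given in the sources used here. The authors deposited 13 comparison tables and 2 region lists. Per the file headers, baseMean is a signal (mean normalised reads over the libraries), and fold change and standard error are log2 values. The deposited statistic is a score. The authors deposited a p-value for each gene, with its adjusted form, from DESeq2. The region lists hold a score per region, per the file headers from DiffBind, whose kind is not stated.

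The tables hold no counts per sample, so nothing was refitted and the authors' statistics were used. Calls are adjusted p-values under 0.05 as deposited. Group levels were derived from baseMean, fold change and the labelled library numbers. This takes the fold change as a ratio of group means, which need not hold where a WT library has no bearing on it. The tables are named as paired, but whether a block was fitted is not given in the sources used here; genes with a single read showed which libraries a table holds. Differences between tables were tested as z = difference / combined standard error, adjusted by Benjamini-Hochberg over all genes that reached a baseMean of 10 in each table. Regions were matched to RefSeq starts (GRCm38.p6) within 2500 bp. The steps were tested on simulated data (Python 3.11.15, pandas 2.3.3, scipy 1.17.1). Members were named with values where called, with their values in other groups beside them. The members and lists were chosen with earlier results of these data known. A list member was named where called. Other thresholds and adjustments were tried, as given at the end. Per-sample ChIP-seq values were not analysed here.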

Additional observations from a re-analysis of the deposited data

Results flagged for a closer look

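The effect of the Suz12 knock-out differed between ESC and NP in 9 members, by a test of the difference between the 2 deposited log2 fold changes with Benjamini-Hochberg adjustment over 14631 genes. The difference, ESC minus NP, was 6.41 for Wnt3a, 4.31 for Fzd10, 2.41 for Fzd9, 2.06 for Fzd3 and 2.05 for Sfrp1, and -2.69 for Fzd7, -2.08 for Wnt9a, -1.43 for Fzd5 and -1.37 for Fzd6. Of all genes tested 14.3% differed in the same way.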

How the results depend on the processing

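No paired analysis was possible because the tables hold no values per sample from which a fit with or without a replicate block could be made. Leaving out replicates and edgeR against DESeq2 were not run for the same reason. The deposited tables are themselves named as paired, and a single WT library has no effect on the fold changes in 6 of the ESC tables; how the calls would change without pairing was not tested. At an adjusted p under 0.01 the members called numbered 3 in ESC CSex4, 3 in ESC KO-L and 0 in NP CSex4, and with p-values adjusted over all genes 3 in ESC CSex4 and 3 in NP CSex4. The members that differed between ESC KO-L3D and KO-L numbered 1 with no minimum on baseMean and 0 at 0.01, those between ESC KO-S and KO-L 1 at 0.01, and those between NP CSex4 and Deltaex4 0 at 0.01. All other counts kept within 1.5 times, and none of the settings run reversed a direction. Of 112 calls of single members 84 remained at 0.01, 105 with adjustment over all genes, 110 with adjustment over genes with baseMean of at least 10, and 106 after centring on the median gene. The counts of members with a region were the same with a narrower or wider window and with regions under a value of 1e-05 only; the gene span as a window was chosen after seeing the data. The cause of these changes was not tested. Groups of 2 to 4 libraries limit every comparison.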
